A study of Homo sapiens with 12 samples.

Results

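The genes described here encode SR proteins, heterogeneous nuclear ribonucleoproteins (hnRNPs) and other splicing regulators, and their mRNAs were followed in HuR precipitates and in total RNA of a hepatoma line. They were listed by name as a functional family, and earlier results of these data were known when the list was made. Of 51 genes listed, 50 were matched by symbol and tested, out of 57773 genes in the count tables and 22984 that passed the filter on low counts. SRSF8 was not matched by symbol and was not analysed here. By role, the tested genes were 12 SR proteins, 22 hnRNPs, 3 SR-related scaffold proteins, 4 CLK kinases, 4 splice site factors, 3 paraspeckle proteins and 2 DEAD-box helicases.

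The libraries came from HuH-7, an established human hepatoma line. One line stably overexpressed wild-type (WT) HuR and the other stably expressed HuR K120/182R, a mutant in which a pair of lysines that can be SUMOylated are arginines. In both, HuR carried a V5 tag, and RNA was sequenced after RNA immunoprecipitation of the tagged protein (RIP) and from total RNA (input), with 3 libraries in each of 4 groups: WT input, WT RIP, mutant input and mutant RIP. The cells received no other treatment that the labels record. The labels do not say whether a line was 1 clone, whether the cells' own HuR was still present, or whether a group's 3 libraries were grown separately. The p-values therefore cover the spread among these libraries alone, which could be technical. No mock precipitation and no untagged line were used here, so recovery with HuR and recovery with the beads cannot be told apart. The RNA that went into a RIP library was 16 to 77 ng and into an input library 250 ng, and effects of this amount cannot be told apart from precipitation.

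SR proteins bind exonic enhancers through RNA recognition motifs and recruit the spliceosome through domains rich in arginine and serine, which CLK kinases phosphorylate. Many hnRNPs bind introns or exonic silencers and counter that recruitment. Several of these proteins lower their own output by splicing their pre-mRNA into forms that are degraded or kept in the nucleus. HuR, encoded by ELAVL1, binds U-rich and AU-rich stretches, mostly in introns and 3′ UTRs, and is known for stabilizing the mRNAs it binds.

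To show the kind of sequence in question, the 30-base window richest in AU-rich or U-rich motifs is printed from the 3′ UTR of the 3 mRNAs with the highest enrichment and of 2 of the 3 with the lowest. The motifs searched were the pentamer ATTTA, its longer form TATTTAT and the U run TTTTTTT, on the transcript strand only, and they can overlap one another. Sequences are from GRCh37, 5′ to 3′ in the direction of the transcript, with T for U and motif bases in capitals.
RBM39, chr20:34291227-34291256, minus strand: gcaTATTTATgaagaaattttcaccATTTA
PTBP2, chr1:97279209-97279238, plus strand: taattttgcTTTTTTTTTTTTTTTTTTTTT
CLK1, chr2:201717832-201717861, minus strand: catctttttcagtaattgtaaagtgATTTA
HNRNPUL1, chr19:41812994-41813023, plus strand: cTTTTTTTTggtaattatgcgcTTTTTTTT
PTBP1, chr19:810909-810938, plus strand: accttagcagaccagagattttaTTTTTTT
The window of RBM39 held ATTTA near either end, that of PTBP2 was a long U run, and that of CLK1 held the only ATTTA of its 3′ UTR. HNRNPUL1, the least recovered of the 50, held a pair of U runs in its window. The 3′ UTR of U2AF2, also among the 3 lowest, held none of the 3 motifs in its 648 bases. A match is a description of the sequence, not a binding site.

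Total gene counts ran from 31774994 to 73149117 per library. Levels are CPM, counts scaled to a common library size with TMM factors (a trimmed mean of log ratios between libraries). These factors were 1.32 to 1.78 in RIP libraries and 0.53 to 0.91 in inputs. A gene was called where the Benjamini-Hochberg adjusted p of edgeR's quasi-likelihood F-test was under 0.05. ELAVL1 itself, whose counts do not separate tagged from native transcripts, averaged 58.2 CPM in WT inputs and 48.3 CPM in mutant inputs and did not pass the test between them (log2 fold change -0.27 ± 0.12, adjusted p = 0.14). All 10 hepatocyte markers checked reached 1 CPM in an input, against 2 of 8 immune and 2 of 7 stromal markers. The summed level of the hepatocyte markers was 11489 to 13486 CPM in WT inputs, 5901 to 6189 in WT RIP, 9083 to 10114 in mutant inputs and 3671 to 4128 in mutant RIP, so it was lower in each precipitate than in its input. Between the inputs 2 of the 10 markers were called lower in the mutant line, AFP (8337 to 5127 CPM) and FGB, 4 had values above 0 and the median log2 fold change was -0.09. The part of this in the results was not tested. In bulk RNA, fewer cells with a transcript and less of it per cell cannot be told apart.

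Splicing regulator mRNAs were recovered unevenly with WT HuR. Of the 50, 16 (32.0%) were higher in WT RIP than in WT input, where 25.6% of all genes tested were called higher, and 6 (12%) were lower, where 25.4% of all genes were. Their median log2 fold change was 0.11, against 0.06 for all genes tested and -0.13 for protein-coding genes. With HuR K120/182R, 27 (54.0%) were higher in RIP than in input, against 29.0% of all genes, and 9 (18.0%) were lower, against 28.0%. The median there was 0.47, against 0.07 for all genes and -0.11 for protein-coding genes. These shares depend on the scaling: with total library size, which moved the median of all genes to 1.12 and 1.38, the calls were 47 higher and 1 lower for WT HuR, where 68.6% and 3.82% of all genes were, and 48 and 1 for the mutant, where 73.1% and 4.01% were. With TMM from protein-coding genes alone they were 23 and 5, against 30.7% and 20.8% of all genes, and 29 and 5, against 33.2% and 24.2%. Removing each library's trend with GC content gave members a median of 0.03 with WT HuR, below the 0.20 of all genes, and of 0.24 with the mutant, close to the 0.22 of all genes.

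RBM39, a U2AF-related splicing factor at chr20:34289269-34330234, stood highest in both precipitates. Its level was 121, 129 and 113 CPM in the WT inputs and 458, 505 and 626 CPM in the WT RIP libraries. In the mutant line it was 103, 139 and 132 CPM in inputs and 650, 614 and 640 CPM in RIP. Every RIP library was above every input library in both lines. The rise over input was 4.39-fold with WT HuR (log2 2.13 ± 0.15 SE, adjusted p = 4.08e-11) and 5.09-fold with the mutant (2.35 ± 0.15, adjusted p = 3.72e-12). RBM25, another splicing factor that acts at splice site choice, rose by 0.99 ± 0.13 and 1.56 ± 0.13 on the log2 scale.

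The U2AF heterodimer, which recognizes the 3′ splice site, was divided between its subunits. U2AF1 (chr21:44513066-44527680), which contacts the terminal AG, was at 31.8, 33.7 and 33.7 CPM in WT inputs and 60.4, 53.0 and 56.2 CPM in WT RIP. It was at 26.3, 22.9 and 20.7 CPM in mutant inputs and 39.2, 42.2 and 39.8 CPM in mutant RIP. The precipitates lay above the inputs in both lines, by 0.77 ± 0.11 and 0.80 ± 0.12 on the log2 scale. U2AF2 (chr19:56165512-56186082), which binds the polypyrimidine tract, lay on the other side of its inputs. It was at 36.5, 38.8 and 45.0 CPM in WT inputs and 19.7, 22.8 and 22.5 CPM in WT RIP, and at 57.1, 40.6 and 43.9 CPM in mutant inputs against 25.5, 25.5 and 23.8 CPM in mutant RIP. No RIP library reached the level of an input. U2AF2 was 1.85-fold lower with WT HuR (log2 -0.89 ± 0.13, adjusted p = 3.14e-06) and 1.89-fold lower with the mutant (-0.92 ± 0.13, adjusted p = 1.30e-06). Once the trend with GC content was removed, the WT value of U2AF2 was -0.02 and the mutant value 0.16. The direction of U2AF2 also depended on the scaling. With total library size, which moved the median of all genes to 1.12 and 1.38, U2AF2 was at 0.17 and 0.38. Neither value was called.

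Among the hnRNPs, 7 of 22 were higher and 4 lower with WT HuR, where 25.6% and 25.4% of all genes were. With the mutant 13 were higher and 6 lower, where 29.0% and 28.0% of all genes were. PTBP2 (chr1:97187221-97289294), the polypyrimidine tract binding protein best known from neurons, was the hnRNP with the highest enrichment, from a low level. It was at 9.91, 10.8 and 8.06 CPM in WT inputs and 23.8, 25.3 and 30 CPM in WT RIP. The mutant inputs were at 6.59, 10.1 and 12.4 CPM and the mutant RIP libraries at 33.0, 32.4 and 35.6 CPM. The groups did not overlap in either line, and the log2 fold changes were 1.46 ± 0.17 and 1.80 ± 0.17. Its paralog PTBP1 (chr19:797075-812327), the widely expressed repressor of exon inclusion, moved the other way. PTBP1 was at 118, 120 and 125 CPM in WT inputs and 61.4, 65.7 and 63.8 CPM in WT RIP. In the mutant line PTBP1 was at 123, 116 and 111 CPM in inputs and 71.7, 62.5 and 59.5 CPM in RIP. Every precipitate of PTBP1 lay below every input, with log2 fold changes of -0.93 ± 0.12 and -0.85 ± 0.12. With the GC trend removed, the mutant value of PTBP1 was -0.01, which did not pass the test. With total library size PTBP1 was at 0.13 with WT HuR, not called, and at 0.46 with the mutant, called higher. That scaling moved the median of all genes to 1.12 and 1.38. PTBP3, the remaining paralog, was at 0.08 ± 0.12 with WT HuR, which did not pass the test, and rose by 0.52 ± 0.12 with the mutant.

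HNRNPUL1 (chr19:41768401-41813692), a relative of the scaffold protein hnRNP U, was the most depleted of the 50. It was at 88.9, 82.3 and 118 CPM in WT inputs and 22.4, 20.1 and 20.7 CPM in WT RIP. It was at 103, 74.3 and 75.0 CPM in mutant inputs and 16.3, 14.0 and 12.4 CPM in mutant RIP. The input and RIP libraries were far apart in both lines, 4.58-fold with WT HuR (log2 -2.19 ± 0.15) and 5.90-fold with the mutant (-2.56 ± 0.16). TGFB1, on the opposite strand and sharing 3.21% of the exonic bases of HNRNPUL1, was lower too (-2.03 ± 0.17 and -2.62 ± 0.18). Whether the counting used strand is not given in the sources used here, so reads of genes on opposite strands cannot be told apart where their exons overlap.

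HNRNPA1 (chr12:54673977-54680872), one of the core hnRNPs and a repressor of exon inclusion, had the highest level of the family. Per kilobase of exon it was at 62.3 ± 7.99 CPM in WT inputs (SD, n = 3), followed by HNRNPAB at 33.7 ± 2.19, HNRNPC at 30.2 ± 1.70, HNRNPK at 29.2 ± 1.71 and SRSF1 at 28.6 ± 1.71. HNRNPA1 stood apart from the next by more than its spread, while HNRNPC, HNRNPK and SRSF1 differed from one another by less than theirs. The lowest were PTBP2 at 0.476 ± 0.0687 and CLK4 at 0.447 ± 0.0708, which did not differ beyond their spread. The length used is that of all annotated exons of a gene, 20122 bases for PTBP2 and 7922 for CLK4. The order per kilobase depends on this length, and which annotation was counted is not given. Not divided by length, the level of HNRNPA1 was 423, 361 and 468 CPM in WT inputs and 877, 719 and 765 CPM in WT RIP. It was 464, 487 and 417 CPM in mutant inputs and 838, 767 and 829 CPM in mutant RIP. The precipitates were higher by 0.92 ± 0.15 and 0.83 ± 0.15 on the log2 scale, with no overlap. This gene is uncertain, since 74 annotated pseudogenes of HNRNPA1 held 12.1% to 21.3% of the counts shared among them and the gene.

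HNRNPH1 and HNRNPH3 encode hnRNPs that bind runs of G, and both were recovered with HuR. HNRNPH1 (chr5:179041179-179061785) was at 151, 136 and 148 CPM in WT inputs and 219, 257 and 272 CPM in WT RIP. HNRNPH1 was at 125, 173 and 152 CPM in mutant inputs and 381, 387 and 453 CPM in mutant RIP. The mutant RIP libraries were the highest of the 12 and overlapped with no other group. HNRNPH3 (chr10:70090931-70102950) was at 18.4, 17.8 and 22.1 CPM in WT inputs and 38.8, 39.8 and 43.8 CPM in WT RIP. HNRNPH3 was at 20.5, 22.6 and 22.9 CPM in mutant inputs and 59.4, 60.8 and 72.8 CPM in mutant RIP. It too was highest in every mutant RIP library. The log2 enrichments were 0.78 ± 0.14 and 1.44 ± 0.14 for HNRNPH1 and 1.07 ± 0.12 and 1.55 ± 0.12 for HNRNPH3. SYNCRIP, which binds A-rich and AU-rich RNA, rose by 0.79 ± 0.12 and 1.19 ± 0.12, but 27.1% of its exonic bases are shared with ENSG00000271793 on the same strand. HNRNPL, which binds CA repeats, fell by 0.58 ± 0.11 with WT HuR, and HNRNPAB fell by 0.47 ± 0.13. HNRNPL shares 8.64% of its exonic bases on the same strand with ENSG00000268083, which was lower too (-1.57 ± 0.12 and -1.64 ± 0.12). Exons of PHYKPL, on the opposite strand, cover 9.25% of HNRNPAB, and PHYKPL was at 0.26 ± 0.12 and 0.79 ± 0.12.

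Of the 12 SR proteins tested, 4 rose and 1 fell with WT HuR, where 25.6% and 25.4% of all genes did. With the mutant 5 rose and 2 fell, where 29.0% and 28.0% of all genes did. SRSF4 led the SR proteins at 0.88 ± 0.12 and 1.19 ± 0.12, followed by SRSF7 at 0.66 ± 0.12 and 0.89 ± 0.12. SRSF5 (0.66 ± 0.12 and 0.82 ± 0.12) and the SR-like activator TRA2A (0.52 ± 0.12 and 0.88 ± 0.12) passed the test in both lines as well. SRSF6 was the SR gene that fell in both, with log2 fold changes of -0.37 ± 0.12 and -0.42 ± 0.12, the former not called without WT RIP 3 (-0.31), WT input 1 (-0.28) or WT input 2 (-0.31). SRSF2 was at 0.03 ± 0.12 with WT HuR, which did not pass, and rose by 0.53 ± 0.12 with the mutant, while SRSF9 was at -0.05 ± 0.12 and fell by 0.36 ± 0.12, a call lost without mutant RIP 2 (-0.30) or 3 (-0.31). With the GC trend removed, the mutant value of SRSF9 was 0.04, above 0. Exons on the opposite strand cover 27.7% of SRSF2 (MFSD11) and 43.6% of SRSF9 (GATC). SRSF1, the founding member of the family, was at -0.14 ± 0.13 and -0.10 ± 0.13, and neither passed. It shares 32.7% of its exonic bases with ENSG00000266086 on the same strand. SRSF3, SRSF10, SRSF11 and TRA2B also passed in neither line, with values from -0.19 to 0.25.

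The CLK kinases phosphorylate SR proteins and so set their activity. CLK1 (chr2:201717732-201729414) was at 20.7, 19.9 and 16.7 CPM in WT inputs and 37.6, 40.0 and 49.2 CPM in WT RIP. CLK1 was at 12.1, 18.1 and 20.8 CPM in mutant inputs and 52.0, 53.2 and 70.0 CPM in mutant RIP. All RIP libraries lay above all inputs, and the log2 fold changes were 1.14 ± 0.17 and 1.78 ± 0.17. CLK2, CLK3 and CLK4 did not pass the test with WT HuR (0.28 ± 0.14, 0.24 ± 0.13 and 0.24 ± 0.19). CLK4 (chr5:178029665-178057616) passed with the mutant at 0.51 ± 0.19, but not without mutant RIP library 1 (0.44), mutant RIP library 3 (0.49) or mutant input library 1 (0.30). With the GC trend removed, CLK4 was at 0.05 with the mutant and not called. Its lowest count in a library was 115, the lowest of the 50.

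SRRM1, a coactivator with SR-rich repeats, was at 0.21 ± 0.12 with WT HuR and rose by 0.59 ± 0.12 with the mutant. SON and SRRM2, the proteins that build nuclear speckles, passed in neither. Of the paraspeckle proteins, PSPC1 was at 0.14 ± 0.12 with WT HuR, which did not pass, and rose by 0.60 ± 0.12 with the mutant, and SFPQ and NONO passed in neither line. The pseudogenes of PSPC1 held 5.75% to 15.8% of the shared counts. The helicase DDX5, a cofactor that unwinds RNA structures near splice sites, rose by 0.40 ± 0.13 and 0.58 ± 0.13. Its paralog DDX17 was at 0.06 ± 0.12 with WT HuR and rose by 0.58 ± 0.12 with the mutant.

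**Figure D1:**
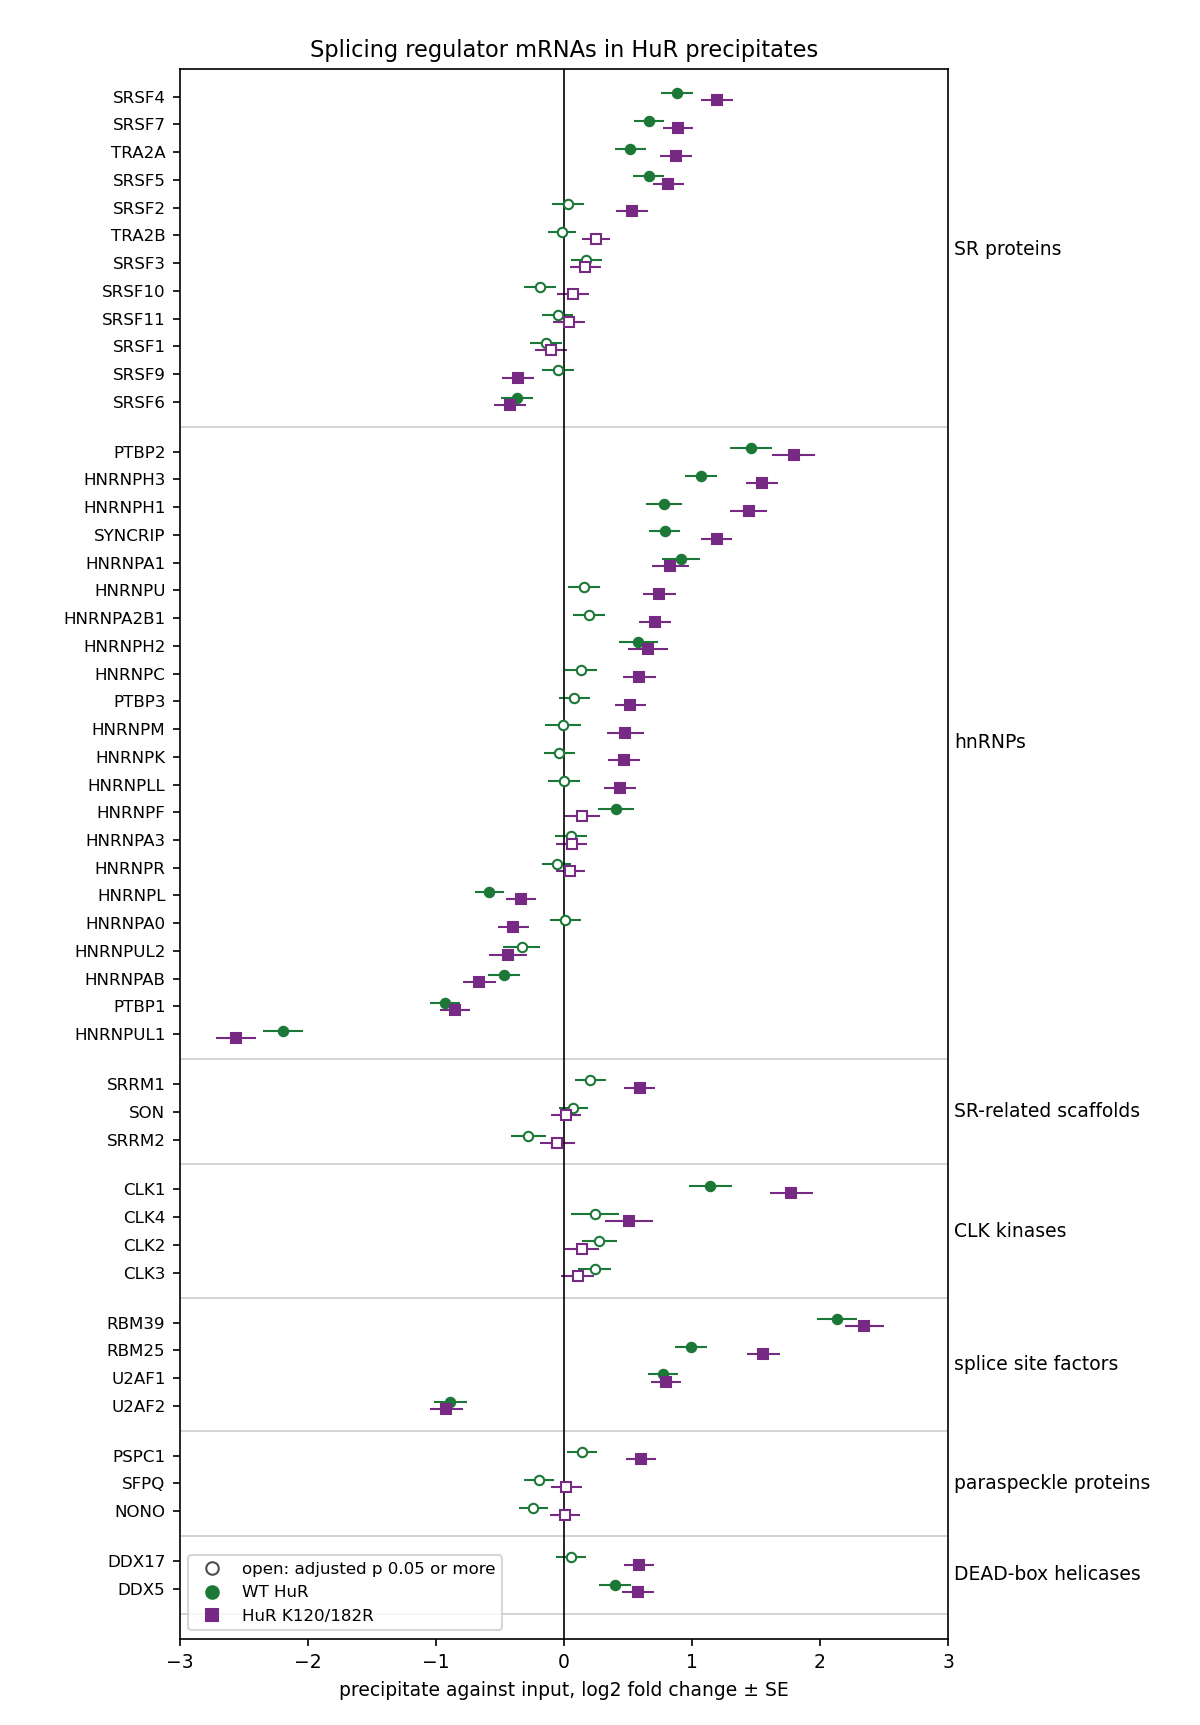
Log2 fold change of each precipitate over its input (x axis, with SE) for the 50 genes tested, grouped by role, with WT HuR as circles and HuR K120/182R as squares. Filled symbols passed an adjusted p under 0.05; RBM39 lies farthest right at 2.13 and 2.35, and HNRNPUL1 farthest left at -2.19 and -2.56.

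**Figure D2:**
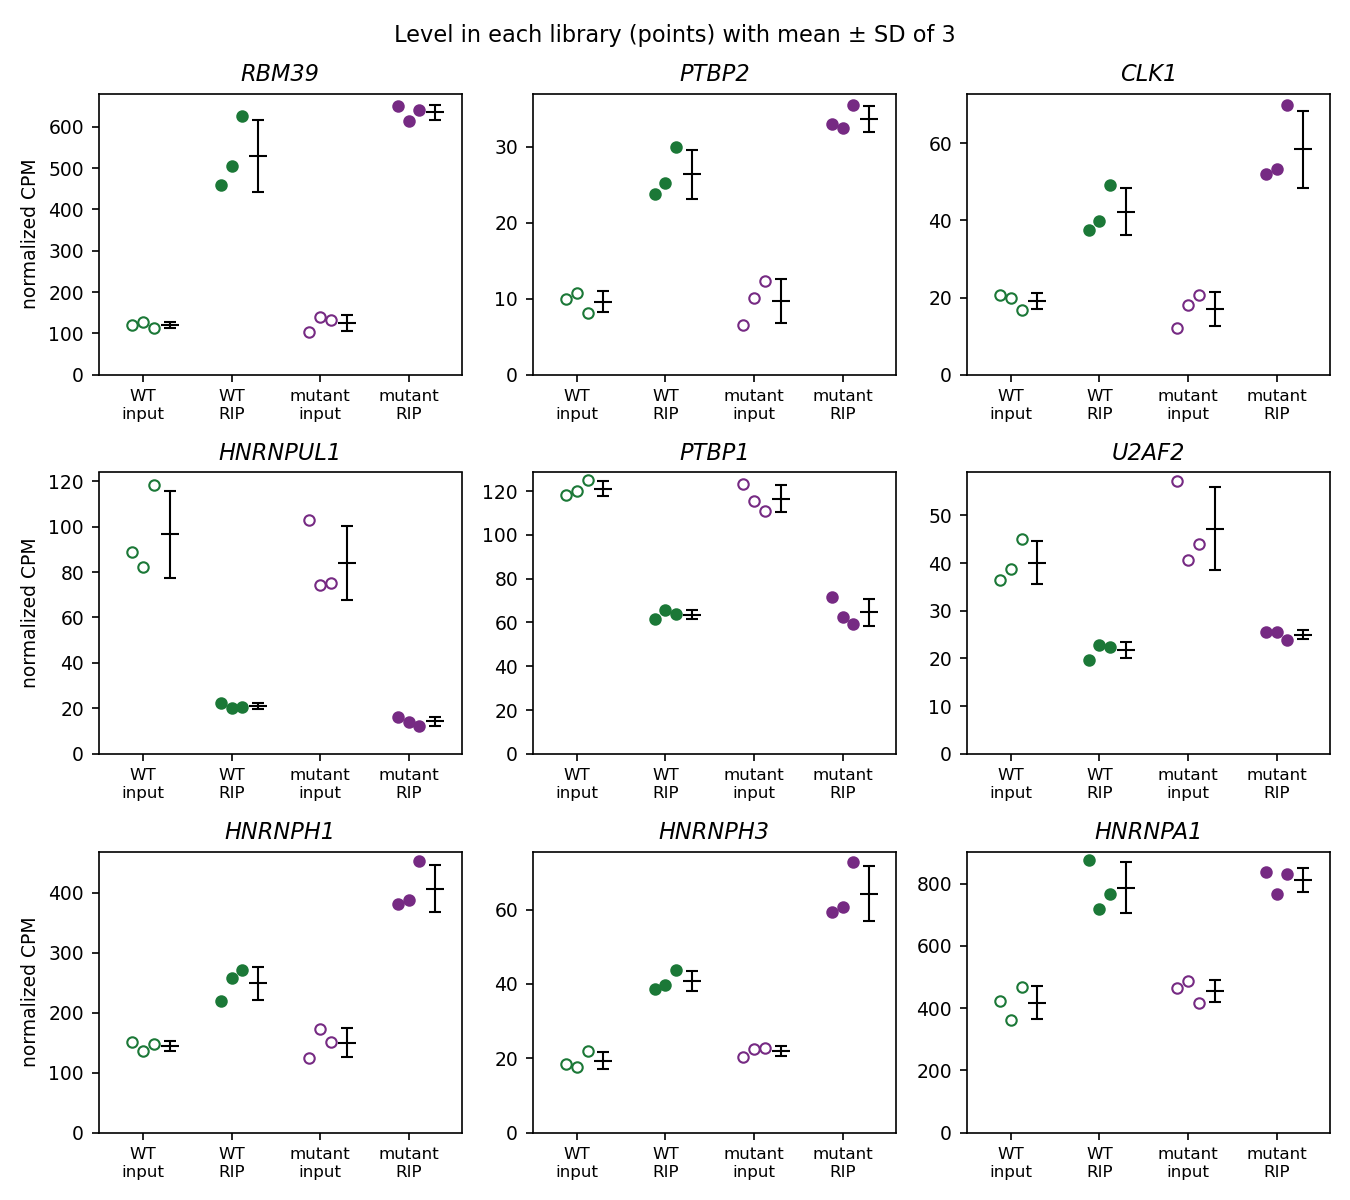
TMM-scaled CPM (y axis, from 0, with its own range in each panel) of 9 genes in each of the 12 libraries, with inputs open, RIP filled, and the mean ± SD of 3 beside each group. In RBM39, PTBP2, CLK1, HNRNPH1, HNRNPH3 and HNRNPA1 every RIP library lies above the inputs, and in HNRNPUL1, PTBP1 and U2AF2 every one lies below.

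The enrichments measured with both forms of HuR gave the genes a similar order. Across the 50 genes, Pearson r was 0.95 and Spearman rho 0.91 between the log2 enrichments, which share no library but share the genes, and genes are not independent replicates. Of all genes tested, 25.6% were called higher and 25.4% lower with WT HuR, and 29.0% and 28.0% with the mutant. The overlap of these calls and the correlation were not computed over all genes. Whether the likeness is particular to the 50 was therefore not tested. Of the 50, 15 were called higher with both forms, 6 lower with both and 0 in opposite directions. A further 12 were called higher with the mutant alone, 3 lower with the mutant alone and 1, HNRNPF (0.41 ± 0.14), higher with WT HuR alone, which was not called without WT RIP 1 (0.21) or WT input 2 (0.36). These calls do not show that the enrichments differ, and the test of the difference itself called 0 of 50 in edgeR in either direction. In simulated counts the edgeR test of the difference recovered 2% of genes changed by 0.5 on the log2 scale. It recovered 50% of those changed by 1. The changed genes were drawn from the filtered genes at large, not from the 50. The median SE of the difference was 0.29 for all genes tested and 0.17 for the 50, so these rates are not those of the 50. The absence of calls still does not show equal enrichments. Among all genes 0.0653% were called higher and 0.0% lower in that test. At an unadjusted p under 0.05 there were 18 of 50, against 3005 of 22984 genes tested, and the smallest adjusted p of the 50 was 0.151. DESeq2 called 5 of the 50 as higher with the mutant: HNRNPU (0.59 ± 0.17), HNRNPH1 (0.66 ± 0.19), HNRNPK (0.51 ± 0.15), DDX17 (0.52 ± 0.15) and HNRNPA2B1 (0.51 ± 0.15), with adjusted p from 0.0238 to 0.0318. DESeq2 called 1.44% of all genes higher in that test. The median difference over the 50 was 0.23, against 0.00 for all genes, and 37 were above 0. It was 0.10 without mutant input library 1 and 0.13 without WT input library 1, where all genes were at -0.03 and -0.05, and 0.14 with the GC trend removed, where all genes were at 0.02. The 95% intervals of single genes reached from -0.80 (HNRNPUL1) to 1.12 (CLK1), so differences of up to these sizes were not excluded for those genes.

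When the precipitates were compared directly, 11 of the 50 (22.0%) were higher with the mutant, against 9.87% of all genes, and 7 (14.0%) were lower, against 9.76%. HNRNPH1 and HNRNPH3 were among the higher, by 1.63-fold (log2 0.71 ± 0.14, adjusted p = 0.000888) and 1.58-fold (0.66 ± 0.12, adjusted p = 0.000367). All 3 mutant libraries of each lay above all 3 WT libraries, as the values above show. In the inputs HNRNPH1 differed by 0.05 ± 0.14 and HNRNPH3 by 0.18 ± 0.12, and neither passed, but with the GC trend removed HNRNPH3 was called higher there (0.31). NONO (chrX:70474664-70521372), a paraspeckle protein that pairs with SFPQ, was at 39.9, 44.4 and 37.8 CPM in WT RIP and 55.8, 60.9 and 54.4 CPM in mutant RIP. NONO was at 49.7, 46.5 and 47.8 CPM in WT inputs and 53.0, 62.5 and 54.7 CPM in mutant inputs. The mutant libraries were above the WT ones on both sides, by 0.49 ± 0.11 in the precipitates, which passed, and by 0.24 ± 0.11 in the inputs, which did not.

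Of the 4 CLK kinases, 3 were higher in mutant RIP than in WT RIP, where 9.87% of all genes were. CLK4 was at 3.72, 4.64 and 4.22 CPM in WT RIP and 7.59, 6.28 and 7.23 CPM in mutant RIP, a rise of 0.74 ± 0.18. CLK4 inputs were at 4.12, 3.51 and 3.00 CPM in the WT line and 3.43, 5.46 and 5.92 CPM in the mutant line, and these overlapped (0.48 ± 0.19, adjusted p = 0.0872). The CLK4 inputs were called higher without mutant input library 1 (0.69) and with the GC trend removed (0.65). CLK2 was higher by 0.44 ± 0.13 in the precipitates and by 0.58 ± 0.14 in the inputs. CLK1 was higher by 0.47 ± 0.16 in the precipitates (adjusted p = 0.0481), a call that was lost in 7 of the 12 fits that left out 1 library: without WT RIP 1 (0.39) or 2 (0.42), mutant RIP 2 (0.53) or 3 (0.32), WT input 1 (0.44) or 2 (0.44), or mutant input 2 (0.44). SRSF2, SRSF4, SRRM1, SRRM2 and RBM25 were the other genes that were higher, by 0.37 to 0.48. The count of 11 fell to 5 without WT RIP library 1, to 7 without mutant RIP library 2 and to 7 without mutant RIP library 3. With total library size, which moved the median of all genes to -0.17, 1 was higher and 7 lower, where 3.38% and 11% of all genes were. Besides CLK1, the calls of CLK2, SRSF4, SRRM1, SRRM2 and RBM25 were lost in some of these fits, each without WT RIP library 1 among them, where the values were 0.36, 0.31, 0.31, 0.28 and 0.31.

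The genes lower in mutant RIP were HNRNPA3, HNRNPH2, HNRNPUL1, HNRNPUL2, HNRNPA0, U2AF1 and SON. HNRNPUL2 is uncertain, since 44.3% of its exonic bases are shared on the same strand with the readthrough gene HNRNPUL2-BSCL2. HNRNPA3 (chr2:178077422-178088687), a core hnRNP that packages nascent transcripts, showed the same loss on both sides. It was at 171, 170 and 167 CPM in WT inputs and 112, 96.9 and 96.5 CPM in mutant inputs. In RIP it was at 196, 168 and 164 CPM with WT HuR and 100, 103 and 115 CPM with the mutant. No mutant library reached a WT library, and the log2 fold change was -0.73 ± 0.12 in both comparisons (adjusted p = 0.000193 in inputs and 0.000164 in precipitates). This gene is uncertain on 2 counts: 53.6% of its exonic bases lie opposite exons of NFE2L2, and 16 pseudogenes held 9.12% to 17.7% of the shared counts. NFE2L2 itself differed by -0.29 ± 0.12 in inputs and 0.02 ± 0.12 in precipitates, and neither passed. U2AF1, whose values are given above, was lower at -0.48 ± 0.11 in precipitates and -0.51 ± 0.12 in inputs.

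HNRNPH2 (chrX:100663210-100669121), the X-linked member of the HNRNPH family, was at 14.7, 14.0 and 13.0 CPM in WT inputs and 6.71, 10.8 and 8.43 CPM in mutant inputs. In RIP it was at 24.6, 17.8 and 20.0 CPM with WT HuR and 12.9, 14.7 and 13.4 CPM with the mutant. The mutant line was lower on both sides with no overlap, at -0.68 ± 0.16 in inputs and -0.61 ± 0.15 in precipitates. Its precipitate call was lost without WT RIP library 1 (-0.47). The readthrough gene RPL36A-HNRNPH2 shares 15.8% of its exonic bases on the same strand. HNRNPUL1 fell by 0.57 ± 0.15 in precipitates, a call lost without mutant RIP library 3 (-0.47), and was at -0.20 ± 0.15 in inputs. HNRNPA0, at -0.39 ± 0.12 in precipitates, lost its call without WT RIP 1 (-0.40), WT RIP 3 (-0.31), mutant RIP 2 (-0.39) or mutant RIP 3 (-0.36).

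In total RNA the mutant line held less of many hnRNP mRNAs. Of the 50 genes, 15 (30%) were lower in mutant than in WT inputs, against 10% of all genes tested and 14.2% of protein-coding genes. Higher were 3 (6.0%), against 7.47% of all genes: CLK2, CLK3 (0.43 ± 0.13) and HNRNPAB (0.46 ± 0.13). Of the 22 hnRNPs 10 were lower and 1 higher, while of the 12 SR proteins 0 passed in edgeR in either direction, with values from -0.36 to 0.21. An unadjusted p under 0.05 was found for 4 of the 12, against 7015 of 22984 genes tested. DESeq2 called 3 SR proteins lower, SRSF1 (-0.32), SRSF3 (-0.27) and TRA2B (-0.26). The difference between hnRNPs and SR proteins was not tested. The lower hnRNPs were HNRNPA2B1, HNRNPA3, HNRNPC, HNRNPH2, HNRNPK, HNRNPLL, HNRNPR, HNRNPU, HNRNPUL2 and SYNCRIP, with log2 fold changes from -0.73 to -0.35. The other 5 were SON, U2AF1, SFPQ, PSPC1 and DDX17. With DESeq2 18 of the 50 were lower and 3 higher, where 9.76% and 9.74% of all genes were. With total library size, which moved the median of all genes to -0.43, 31 were lower and 0 higher, where 29.7% and 1.68% of all genes were.

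The 15 lower genes rested on single libraries in part. The number was 6 without WT input library 1, 9 without WT input library 2, 8 without mutant input library 1 and 9 without mutant input library 3. The 3 higher genes were 1 without WT input library 1 or 2. The calls of HNRNPA3, HNRNPH2, HNRNPLL, HNRNPU, U2AF1 and DDX17 held in all 12 fits that left out 1 library. HNRNPA2B1 lost its call without WT input library 1 (-0.45). HNRNPK lost it without WT input 1 (-0.39), mutant input 1 (-0.40) or mutant input 3 (-0.38), and SON without WT input 1 (-0.36), WT input 2 (-0.38) or mutant input 1 (-0.31). The calls of HNRNPUL2 (-0.50 to -0.32), PSPC1 (-0.40 to -0.34) and SFPQ (-0.38 to -0.32) were each lost in 4 fits, always without an input library. SYNCRIP lost its call in 5 (-0.40 to -0.27), HNRNPR in 6 (-0.40 to -0.28) and HNRNPC in 9 (-0.42 to -0.30). Of the higher genes, CLK3 lost its call without WT input 1 (0.40) or 2 (0.38), and HNRNPAB without WT input 1 (0.45), WT input 2 (0.43) or mutant input 1 (0.30). Total gene counts that the annotation did not match made up 15.9% to 18.8% of WT inputs and 19.6% to 21.0% of mutant inputs. In RIP libraries they made up 2.65% to 3.39%. The part of this in the results was not tested.

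HNRNPU (chr1:245003940-245027862), a scaffold protein that binds chromatin and nascent RNA, was at 140, 127 and 155 CPM in WT inputs and 89.5, 99.4 and 89.1 CPM in mutant inputs. In RIP it was at 147, 150 and 174 CPM with WT HuR and 145, 155 and 167 CPM with the mutant. The inputs did not overlap (-0.60 ± 0.13, adjusted p = 0.00151), while the precipitates did (-0.02 ± 0.13). DDX17 (chr22:38879443-38903665) showed the same layout, at 83.1, 77.6 and 76.1 CPM in WT inputs, 48.5, 58.6 and 56.6 CPM in mutant inputs, 73.7, 85.2 and 87.4 CPM in WT RIP and 77.7, 83.4 and 84.4 CPM in mutant RIP. Its inputs differed by -0.53 ± 0.12 and its precipitates by -0.01 ± 0.12. HNRNPLL (chr2:38789111-38830728), known for its part in alternative splicing in lymphocytes, was at 18.6, 18.1 and 15.2 CPM in WT inputs and 11.1, 12 and 12.2 CPM in mutant inputs. HNRNPLL was at 16.4, 16.4 and 19.1 CPM in WT RIP and 16.3, 15.2 and 16.4 CPM in mutant RIP. The inputs again lay apart (-0.56 ± 0.13), and the precipitates differed by -0.12 ± 0.12. COX20, on the opposite strand, covers 15.6% of HNRNPU.

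Of the 15 genes lower in the mutant inputs, 10 passed no test between the precipitates and 5 were lower there too (HNRNPA3, HNRNPH2, HNRNPUL2, SON and U2AF1). The mutant enrichment and the comparison of inputs share the mutant input libraries, so a low mutant input enters both. For HNRNPU, DDX17 and HNRNPLL the mutant enrichments were 0.75 ± 0.13, 0.58 ± 0.12 and 0.44 ± 0.13, and the WT enrichments were 0.16 ± 0.13, 0.06 ± 0.12 and 0.00 ± 0.12. With the GC trend removed, the mutant enrichment of HNRNPLL was 0.00 and was not called, while its WT enrichment was -0.24 and was called lower.

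**Figure D3:**
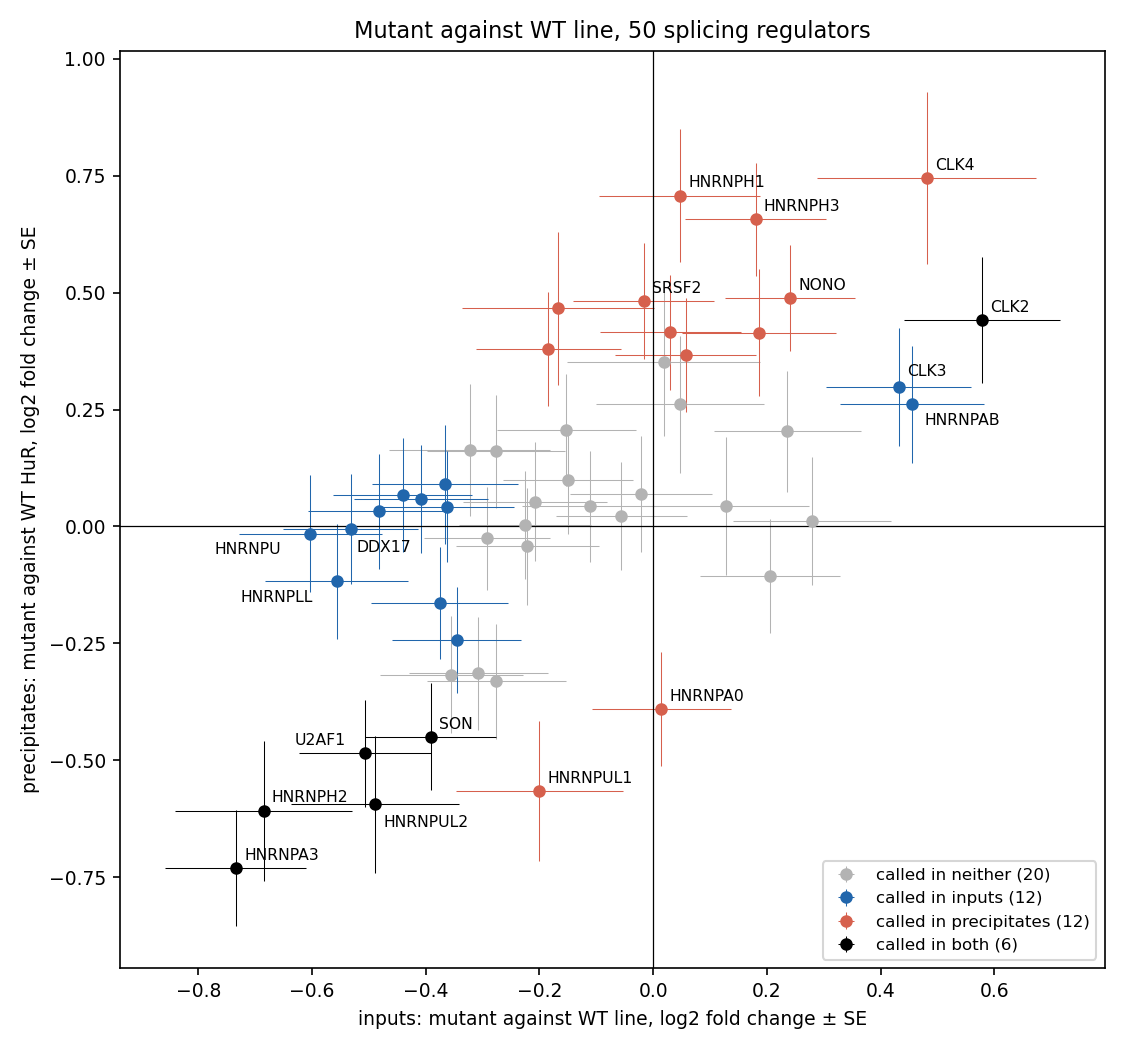
Log2 fold change (with SE) of the mutant line against the WT line in inputs (x axis) and in precipitates (y axis) for the 50 genes, coloured by the comparison in which each passed an adjusted p under 0.05. HNRNPA3, HNRNPH2, HNRNPUL2, U2AF1 and SON lie low on both axes, HNRNPU, DDX17 and HNRNPLL lie low on the x axis alone, and HNRNPH1 (0.71) and HNRNPH3 (0.66) lie high on the y axis.

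The genes share features of sequence and annotation. Their canonical transcripts had a median GC content of 42.4%, against 48.3% for protein-coding genes tested, and their 3′ UTRs a median U content of 35.2%, against 29.9%. The median 3′ UTR length was close, at 1273 and 1238 bases. A U run (TTTTTTT) was present in the 3′ UTR of 42 of 50 (84.0%), against 49.5% of coding genes, and ATTTA in 43 of 50 (86.0%), against 71.1%. The longer TATTTAT was in 16 of 50 (32.0%), against 34.4%. A transcript annotated as a target of nonsense-mediated decay was listed for 42 of 50 (84.0%), against 46.5% of coding genes, and one with a retained intron for 42 of 50 (84.0%), against 57.6%. The 50 also had more annotated transcripts, with a median of 14 against 8 for coding genes. The part of this in those shares was not tested. Gene-level counts do not show which transcript was recovered.

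Base composition ran along with the enrichment, among these genes as among all coding genes. Spearman's rho between transcript GC content and enrichment was -0.32 (WT HuR) and -0.38 (mutant) across the 50 genes, and -0.46 and -0.54 across 14017 coding genes. These are descriptions across genes measured in the same libraries. With coding genes split into tertiles of GC content, 29 of the 50 fell in the GC-poor tertile, 13 in the middle and 8 in the GC-rich one. In the GC-poor tertile 13 of 29 were higher with WT HuR and 20 with the mutant, where 35.1% and 47.5% of coding genes were. In the middle tertile 3 and 7 of 13 were higher, where 23.0% and 25.5% of coding genes were. In the GC-rich tertile 5 of 8 were lower with either form, where 57.6% and 63.6% of coding genes were lower. In inputs, 9 of the 29 GC-poor genes were lower in the mutant line, where 24.8% of coding genes were, and 6 of the 13 middle genes, where 12.9% were. All 3 genes that were higher in mutant inputs were in the GC-rich tertile. Of coding genes 13.2% were higher there, against 4.02% in the GC-poor tertile and 9.48% in the middle one. With the GC trend of each library removed, 24 genes were higher and 8 lower with the mutant, where 33.8% and 21.2% of all genes were, and 14 were lower in inputs, where 12.1% of all genes were. For WT HuR 19 were higher and 8 lower, where 31.0% and 19.9% of all genes were.

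The removal of the GC trend also ended or added calls of single genes. With WT HuR the values of HNRNPL (-0.15), HNRNPAB (-0.04) and DDX5 (0.21) no longer passed. With the mutant, HNRNPC (0.23), HNRNPA2B1 (0.26), HNRNPK (0.17), PTBP3 (0.03), DDX5 (0.23), HNRNPAB (-0.09) and HNRNPUL2 (-0.02) no longer passed, and HNRNPL turned to 0.24. Calls were gained with both forms by CLK2 (0.78 and 0.79), CLK3 (0.79 and 0.81) and SRRM2 (0.27 and 0.66) above input. Below input they were gained with both forms by SRSF1 (-0.38 and -0.54), SRSF10 (-0.47 and -0.42), SRSF11 (-0.26 and -0.35) and HNRNPR (-0.36 and -0.47). Calls below input were also gained by HNRNPLL with WT HuR (-0.24) and by HNRNPA3 with the mutant (-0.42). In inputs HNRNPA2B1 (-0.32), HNRNPC (-0.24), HNRNPR (-0.14), SYNCRIP (-0.25), CLK2 (0.43) and CLK3 (0.28) no longer passed, while HNRNPM (-0.44), HNRNPL (-0.29) and HNRNPUL1 (-0.35) were called lower.

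The U content of the 3′ UTR had a rho of 0.25 with the WT enrichment and 0.37 with the mutant enrichment across the 50, and 0.37 and 0.43 across 13813 coding genes. The length of the 3′ UTR had a rho of -0.40 with the difference between precipitates and -0.38 with that between inputs across the 50, and -0.12 and -0.18 across coding genes. The number of annotated retained-intron transcripts had a rho of 0.33 with the difference between precipitates, and 0.15 across coding genes.

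**Figure D4:**
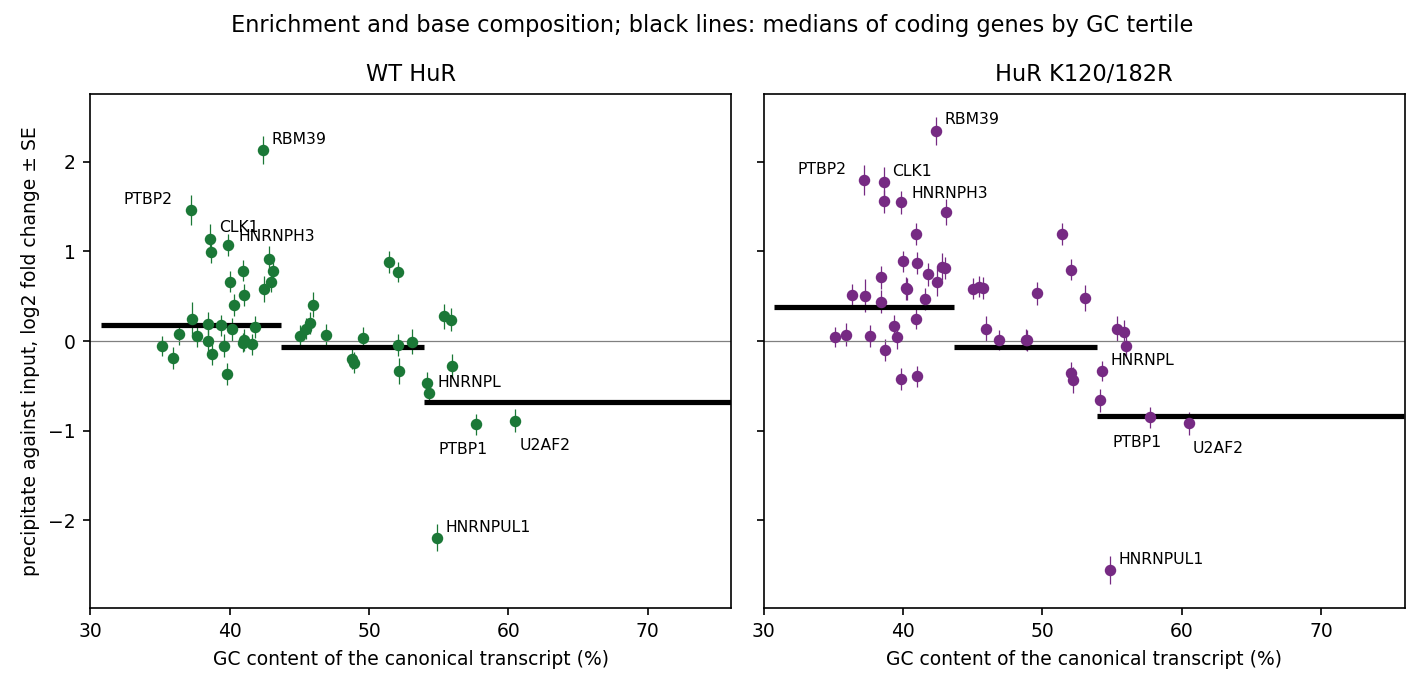
Log2 enrichment over input with SE (y axis) against the GC content of the canonical transcript in percent (x axis) for the 50 genes, with WT HuR on the left and HuR K120/182R on the right. Black lines are the medians of protein-coding genes in each GC tertile, 0.18, -0.06 and -0.68 with WT HuR and 0.38, -0.07 and -0.84 with the mutant; RBM39 lies above and HNRNPUL1 below the line of its tertile.

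Other parts of the splicing machinery did not share one direction. Among all genes tested, 25.6% rose and 25.4% fell with WT HuR, and 29.0% rose and 28.0% fell with the mutant. Other SR-related and SR kinase genes were the closest in kind: 8 of 17 rose with WT HuR and 12 with the mutant, led by NKTR (1.40 ± 0.13 and 1.70 ± 0.13) and the speckle protein PNN (1.12 ± 0.12 and 1.39 ± 0.12). Of the proteins of the U snRNPs and SF3 complexes, 3 of 26 rose and 15 fell with WT HuR, and 5 rose and 14 fell with the mutant. In that group PHF5A rose (1.10 ± 0.13 and 1.21 ± 0.13), SART1 fell by 2.31 ± 0.20 with WT HuR and PRPF31 fell by 1.81 ± 0.17 with the mutant. Of the Sm and LSm proteins, which form the rings around snRNAs, 7 of 14 rose and 4 fell with WT HuR, and 7 rose and 2 fell with the mutant. SNRPF rose by 2.54 ± 0.17 and 2.48 ± 0.17, and LSM7 fell (-1.57 ± 0.14 and -1.82 ± 0.14).

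Factors of the catalytic steps were 5 higher and 7 lower of 26 with WT HuR, and 6 and 7 with the mutant, with PRPF38B at 0.89 ± 0.13 and 1.25 ± 0.13. For these lists too, 25.6% and 25.4% of all genes were higher and lower with WT HuR. With the mutant the shares of all genes were 29.0% and 28.0%. Of 41 other splicing regulators, 12 rose and 14 fell with WT HuR, and 16 rose and 15 fell with the mutant. KHSRP, itself an AU-rich element binding protein that promotes decay, fell (-1.54 ± 0.15 and -1.91 ± 0.16). RAVER1, a partner of PTBP1, fell (-2.15 ± 0.20 and -2.68 ± 0.20). Of 14 factors of nonsense-mediated decay, 3 rose and 3 fell with WT HuR, and 4 rose and 3 fell with the mutant. UPF2 rose by 1.72 ± 0.14 and 2.03 ± 0.14, and SMG5 fell (-1.34 ± 0.14 and -1.70 ± 0.14). In mutant against WT inputs, 7 of the 41 other regulators were lower and 1 was higher. Of all 22984 genes tested, 2301 were lower in that comparison and 1716 were higher.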

How the data were processed

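Stranded total RNA libraries of HuH-7 cells were sequenced, 3 in each of 4 groups. The files hold whole-number counts for each Ensembl gene, as deposited by the authors without normalization. Per the submitters' processing notes, the tools included bcl2fastq 2.20.0.422, cutadapt, STAR 2.4.0j and featureCounts 1.6.4, and the build was hg19. Which annotation was counted, whether strand was used and how multimapped reads were treated is not given in the sources used here. Gene symbols, positions and features came from GENCODE 44 placed on GRCh37, which matched 55538 of 57773 identifiers.

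Counts were filtered with filterByExpr (minimum count 10, total 15) and scaled by TMM. A single robust quasi-likelihood model in edgeR 4.0.16 (R 4.3.3) covered the 12 libraries, with the 4 groups as coefficients, 8 residual degrees of freedom and Benjamini-Hochberg adjustment over 22984 genes. Standard errors came from the F statistic. There were 5 comparisons: RIP against input in each line, the difference between those enrichments, and mutant against WT in RIP and in input. The fit was tested on simulated data. Values in each library are given for the 3 highest and 3 lowest of each enrichment, up to 6 genes a comparison by adjusted p, and the 2 with the highest level. Of each other list, at most 2 genes called in each direction are named. Members and lists were chosen with earlier results of these data known. Replicate numbers were taken as names and were not used to pair the libraries, except in the replicate block named below. Alternatives were other scalings and filters, DESeq2 1.42.0, only the groups compared, a replicate block, leaving out each library and, chosen after seeing the data, removing each library's GC trend.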

Additional observations from a re-analysis of the deposited data

How the results depend on the processing

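Counts of members called, higher and lower, were within 1.5 times the main count under every alternative run except these. With total library size they were 47 and 1 (WT enrichment), 48 and 1 (mutant enrichment), 1 and 7 (precipitates) and 0 and 31 (inputs). TMM from protein-coding genes gave 5 lower in the mutant enrichment, and the DESeq2 test gave 5 higher in the difference of enrichments. Leaving out 1 library gave 15 to 17 higher and 5 to 7 lower in the WT enrichment, 26 to 27 and 6 to 9 in the mutant enrichment, 0 and 0 in the difference, 5 to 11 and 5 to 10 in the precipitates, and 1 to 3 and 6 to 16 in the inputs. With a replicate block the counts were 16 and 6, 27 and 9, 0 and 0, 11 and 7, and 3 and 16. The correlation of same-numbered libraries ran from -0.52 to 0.61 and was over 0.1 in 8 of 18 pairs, and the numbers are taken as names only. Between WT and mutant RIP it was 0.36, 0.61 and 0.04 for the same number, and -0.46 to 0.16 for different numbers. Whether RIP libraries of a number shared a batch was not tested. Of 5200 values of single genes under alternatives, 4911 kept their call or stayed uncalled, 126 gained a call, 146 lost one and 17 called values changed sign. Changes of sign in values that were not called are not counted in the 17. The 5200 include fits that left out a library outside the comparison. Those 17 were, with total library size, PTBP1 (0.13), U2AF2 (0.17), HNRNPL (0.46), SRSF6 (0.70) and HNRNPAB (0.59) in the WT enrichment, PTBP1 (0.46), U2AF2 (0.38), HNRNPL (0.98), SRSF9 (0.96), SRSF6 (0.89), HNRNPA0 (0.91), HNRNPAB (0.64) and HNRNPUL2 (0.86) in the mutant enrichment, and CLK3 (-0.0035) in the inputs. With the GC trend removed they were U2AF2 (0.16), HNRNPL (0.24) and SRSF9 (0.039) in the mutant enrichment. The cause of these changes was not tested. Low counts limit CLK4 most, with 115 in its lowest library.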
